A study of Rattus norvegicus with 6 samples.

Results

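The genes described here are those for mitochondrial ribosomal proteins, chosen by name: every protein-coding row of the count table whose gene name begins with Mrpl or Mrps followed by a number. The rule took 75 of the 25689 genes in the table, and 71 of them had enough reads to be tested, among 14919 genes tested in all. The names Mrpl and Mrps stand for the large and the small ribosomal subunit. The rule separates capital from small letters, so 3 further genes of the family that the table writes in small letters (mrpl9, mrpl11 and mrpl24) are not members, and their values are given apart.

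Mitochondria hold their own ribosomes, which make the few proteins encoded by mitochondrial DNA, all of them parts of the respiratory chain and ATP synthase. The ribosomal RNAs of these particles come from mitochondrial DNA, whereas every ribosomal protein is encoded in the nucleus, made in the cytosol and imported. Some of these proteins descend from bacterial ribosomal proteins and others exist only in mitochondrial ribosomes. Neurons draw heavily on respiration, and sensory neurons carry mitochondria along long axons.

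Neurons from the lumbar L1-L2 dorsal root ganglia (DRGs) were sequenced in spontaneously hypertensive rats (SHRs), an inbred model of essential hypertension. In 3 samples the perirenal adipose tissue had been ablated (PRATA), and in the 3 others the rats had a sham operation. Cells were taken 4 weeks later. By the paper's methods, enzymes first broke the tissue into single cells, which then spent some hours in coated dishes before RNA extraction. Neurons were parted from glia by how fast each kind sticks to the dish. The values are thus those of dissociated, briefly cultured cells. Whether these steps differed between samples or changed the members' values was not tested. The labels call all 6 samples wild type with an age of 6-8 weeks, whereas the methods give a purchase age of 12 weeks. All rats were of the SHR strain, so no sample shows these genes in a normotensive strain. Whether a sample is 1 animal or a pool is not stated. The comparison asks which genes differ in neurons of ganglia that send fibers to this adipose tissue, once the tissue has been removed. The methods describe no sorting of neurons by the tissue they reach. Because nothing in the labels says that replicates were prepared apart, p-values measure the spread between these 6 samples, which may be partly technical.

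Total counts ranged from 5892967 in sham replicate 2 to 15226952 in sham replicate 1, and a floor of 3 counts corresponds to 0.197 to 0.509 CPM (counts scaled to the same library total). Tested members had between 17 and 722 reads in a sample, with a median of 140. PRATA replicate 3 and sham replicate 1 clustered apart from the other 4 samples, and sham replicate 2 had the largest share of reads on pseudogenes (0.751%, against 0.389% to 0.483%). The DRG label was compared with markers: sensory neuron genes summed to 16000 to 24000 CPM after PRATA and 11540 to 17300 after sham, satellite glia to 3291 to 6321 and 4428 to 8726, and myelinating Schwann cells to 790.8 to 1424 and 593.0 to 798.8. Fibroblast markers summed to 347.4 to 2020 and 926.0 to 1874 CPM, macrophage markers to 24.4 to 69.9 and 22.67 to 55.07, and endothelial markers to 73.19 to 148.0 and 29.66 to 174.0. No marker was at 0 in all samples, so reads of glial and other markers were found beside those of neurons. Of all genes, 8.19% were higher and 10.1% lower after PRATA at an unadjusted p under 0.05 by edgeR. Past that threshold, 8 of 26 neuronal markers were higher and 1 lower, and 1 of 10 satellite glia markers was lower. Higher were 3 of 10 Schwann cell and 1 of 9 endothelial markers, and none of 9 fibroblast or 9 macrophage markers passed. Whatever their p, all 10 satellite glia markers had log2 fold changes below zero and all 10 Schwann cell markers above it. The part of these cell types in the members' values was not tested. In bulk samples, fewer cells of a type and less RNA per cell cannot be told apart.

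As a group, mitochondrial ribosomal protein genes showed little difference between the operations. Of the 71 tested, Mrps2 and Mrps6 were lower after PRATA and Mrpl4 was higher past an unadjusted p of 0.05 by the quasi-likelihood test of edgeR, which is 4.23% of them. Of all genes tested, 18.3% passed that threshold, 10.1% lower and 8.19% higher. Among the 8711 genes with a mean level in the members' range of 2.95 to 50.1 CPM the share was 18.6%, so the members' 3 calls stand below the background at like read numbers. No member passed the stricter threshold that also asks for a more than 2-fold difference (4.4% of all genes). At an adjusted p under 0.05 edgeR called no gene of the table, members included, and the smallest adjusted p was 0.156 among members and among all genes alike.

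Members' log2 fold changes (PRATA over sham) had a median of 0.02, the same as over all genes, with 38 above zero and 33 below. Their middle values ran from -0.17 to 0.17, against -0.33 to 0.34 for all genes tested, and the whole range was -0.98 to 0.65. The median size of the log2 fold change was 0.17 in members and 0.34 over all genes, with median standard errors of 0.23 and 0.27. For 62 of 71 members (87.3%) the 95% interval lay inside a 2-fold change in either direction, compared with 48.1% of all genes and 52.8% of genes in the same CPM range. For 18 members it lay inside a 1.5-fold change.

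**Figure D1:**
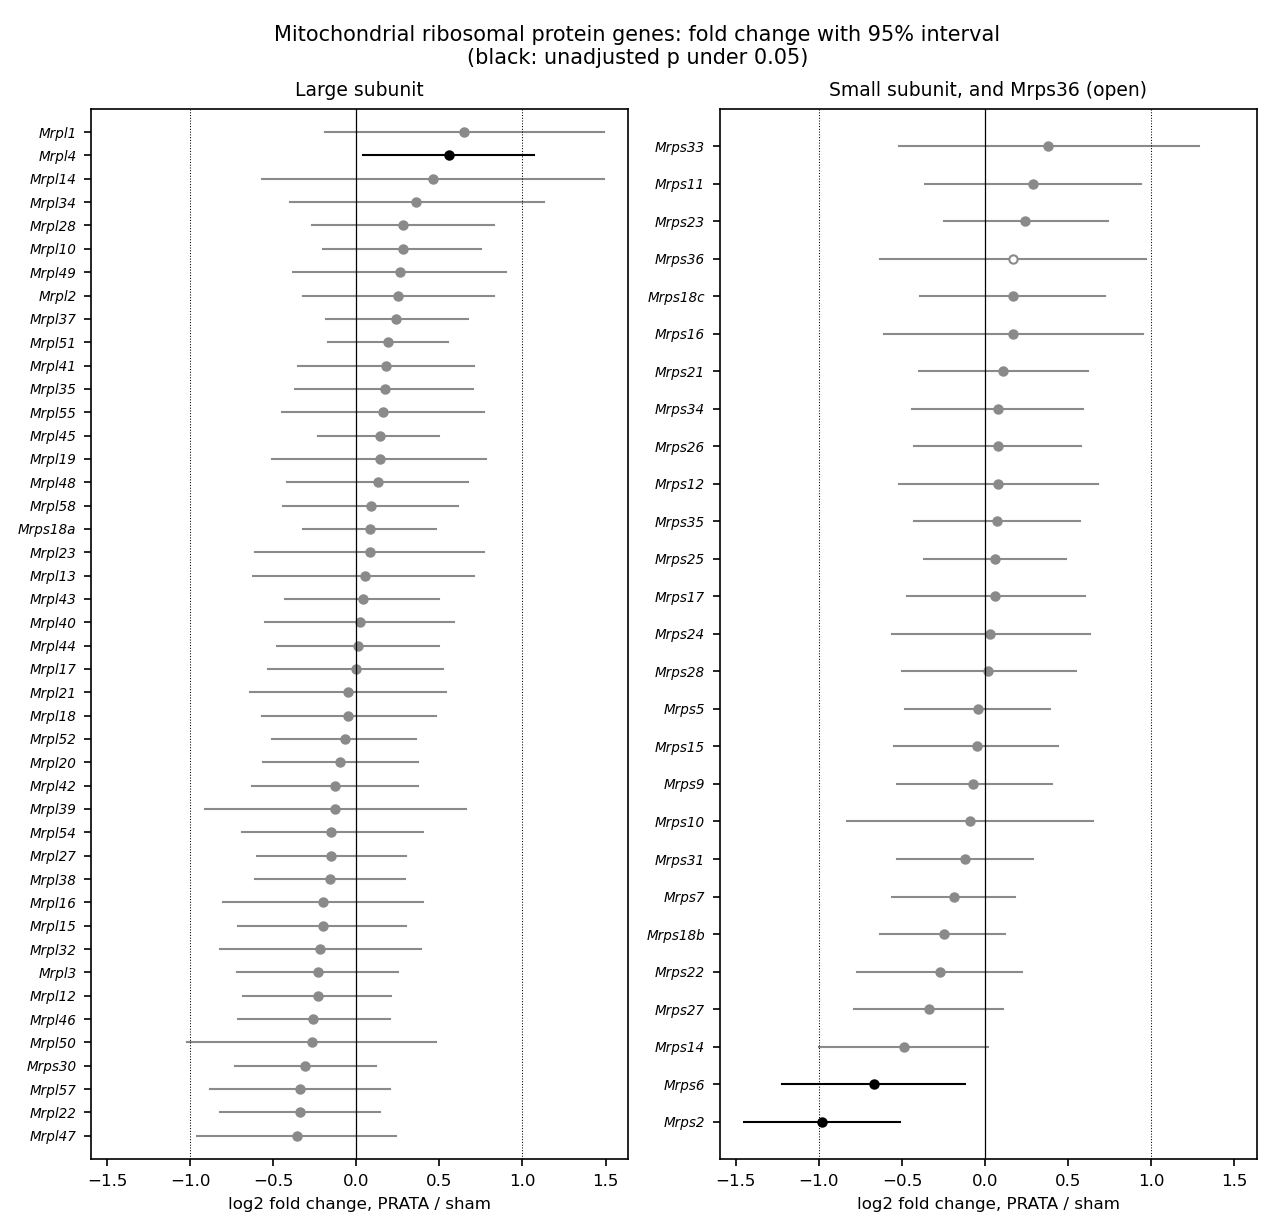
Log2 fold change of each tested member after PRATA relative to sham, by subunit, with a 95% interval derived from edgeR's test statistic. Dotted lines mark a 2-fold change. Black marks Mrpl4, Mrps6 and Mrps2, the 3 members with an unadjusted p under 0.05, and the open point is Mrps36. Most intervals lie between the dotted lines.

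By subunit, genes of the large subunit (44 tested, with Mrps18a and Mrps30, which sit there despite their names) centered on a median log2 fold change of 0.01, with 1 higher and 0 lower at an unadjusted p under 0.05. Genes of the small subunit (26 tested) had a median of 0.03, with 0 higher and 2 lower. Members were also split by descent, as assigned from general knowledge. The 38 taken as counterparts of a bacterial protein had a median of 0.01 and held all 3 calls. The 33 taken as particular to mitochondria had a median of 0.04 and no call. Placements among these 33, such as those of Mrpl47 and Mrpl55, may differ from systematic naming, so the split is approximate. Neither split was tested as a difference. Within both groups of samples the spread was of like size, with a median coefficient of variation of 15.1% after PRATA and 17.3% after sham, and for 46 of 71 members the difference of the group means was smaller than the pooled SD.

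The members at the top of the order are shown first by the DNA around their start sites, since these are the genes on which any difference rests. RefSeq (build GRCr8) gave a window from 250 bases before to 50 bases after the start for 59 of the 75 members, and the other 16 had none. The windows below are, for Mrps2, Mrps6 and Mrpl4, which carry the calls, and for Mrps27, whose window holds a pair of motifs frequent in the family. Capitals mark a match to one of the motifs searched on both strands (GCGCATGC and its looser form GCGCANGC, the core of the NRF1 site, CCGGAAGT of GABPA and other ETS factors, AAGATGGCG of YY1, and the E-box CACGTG).

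Mrps2 (chr3:32200827-32201126, plus strand): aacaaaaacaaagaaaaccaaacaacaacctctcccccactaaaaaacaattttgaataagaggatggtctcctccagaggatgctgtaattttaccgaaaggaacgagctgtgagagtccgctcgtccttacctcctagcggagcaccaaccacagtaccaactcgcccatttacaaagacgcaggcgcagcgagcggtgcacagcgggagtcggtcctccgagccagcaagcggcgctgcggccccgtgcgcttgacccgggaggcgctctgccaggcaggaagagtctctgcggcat
Mrps6 (chr11:44778417-44778716, plus strand): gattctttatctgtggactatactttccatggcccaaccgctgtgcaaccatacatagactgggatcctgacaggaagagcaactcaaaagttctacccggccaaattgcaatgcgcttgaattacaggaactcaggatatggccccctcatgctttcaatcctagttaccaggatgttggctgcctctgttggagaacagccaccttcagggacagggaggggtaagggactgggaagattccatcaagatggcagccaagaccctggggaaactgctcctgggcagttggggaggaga
Mrpl4 (chr8:27815521-27815820, plus strand): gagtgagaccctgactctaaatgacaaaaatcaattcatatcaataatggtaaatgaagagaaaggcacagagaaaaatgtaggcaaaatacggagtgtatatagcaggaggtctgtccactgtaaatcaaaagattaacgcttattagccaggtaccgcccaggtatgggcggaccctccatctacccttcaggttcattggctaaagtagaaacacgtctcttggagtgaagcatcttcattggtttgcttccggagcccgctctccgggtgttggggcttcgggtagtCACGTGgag
Mrps27 (chr2:32473954-32474253, plus strand): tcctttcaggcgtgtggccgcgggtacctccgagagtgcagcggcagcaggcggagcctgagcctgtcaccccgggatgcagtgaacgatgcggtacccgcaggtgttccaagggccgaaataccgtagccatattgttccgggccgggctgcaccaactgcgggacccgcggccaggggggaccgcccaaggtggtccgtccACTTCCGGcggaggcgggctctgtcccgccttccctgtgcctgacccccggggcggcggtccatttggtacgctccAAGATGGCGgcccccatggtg

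The windows of Mrps2 and Mrps6 held none of these letters, that of Mrpl4 held an E-box 42 bases into the transcript, and that of Mrps27 held the ETS motif before the start and the YY1 motif after it. Across the family, the YY1 letters were in 9 of 59 windows (15.3%), in Mrpl36, Mrpl37, Mrpl42, Mrpl46, Mrpl50, Mrps10, Mrps18a, Mrps27 and Mrps30, compared with 2.95% of 13422 protein-coding genes with a window. In 8 of these 9 a copy lay after the start site. The letters contain ATG, so a match there can coincide with a start codon, and this was not examined. The ETS letters were in 13.6% of member windows and 6.41% of all, the strict NRF1 core in 8.47% and 4.18%, the looser core (which includes every strict match) in 20.3% and 16.0%, and the palindromic E-box in 8.47% and 8.79%. Median GC content was 56.0% in members and 59.0% in all genes. None of these shares was tested, and a match describes letters and not a bound site.

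Mrps2, the counterpart of bacterial S2 in the small subunit, differed most between the operations. Its normalized counts were 20.0, 21.0 and 26.1 CPM in PRATA replicates 1 to 3 and 49.9, 35.3 and 47.2 CPM in sham replicates 1 to 3. All PRATA values lay below all sham values. The group means were 22.4 ± 3.26 and 44.1 ± 7.78 CPM (SD, n = 3 each), a ratio of 0.507. Its log2 fold change was -0.98 (SE 0.20, 95% interval -1.45 to -0.51), with an unadjusted p of 0.00123 and an adjusted p of 0.156 in edgeR's test over all genes. In the RefSeq annotation Mrps2 overlaps Pierce1, a gene not analysed here.

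Mrps6, the counterpart of bacterial S6, had 23.8, 24.6 and 18.2 CPM after PRATA and 29.7, 29.3 and 46.9 CPM after sham. The groups did not overlap, but sham replicate 3 stood well above the other sham samples. The log2 fold change was -0.67 (SE 0.24), with an unadjusted p of 0.0223 and an adjusted p of 0.217 by edgeR. Without sham replicate 3 it was -0.41 with an unadjusted p of 0.103 by edgeR, and without PRATA replicate 3 it was -0.55 with 0.084, so the call rests on these samples. Mrps6 overlaps Slc5a3, the myo-inositol cotransporter gene, in the RefSeq annotation. No gene of that name was among those read here. Reads of the shared stretch could thus be counted to Mrps6, which was not tested.

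Mrpl4, whose bacterial counterpart L4 lines the exit tunnel for the growing chain, was the member called higher. It had 11.9, 10.4 and 11.5 CPM after PRATA and 7.05, 9.21 and 6.8 CPM after sham, again without overlap. Its log2 fold change was 0.56 (SE 0.23), with an unadjusted p of 0.0382 and an adjusted p of 0.247 by edgeR. This call was lost when any sample except sham replicate 2 was left out, with log2 fold changes from 0.48 to 0.61 in these fits.

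The other members of small p did not pass the threshold. Mrps14, of the head of the small subunit, had 11.6, 9.8 and 10.8 CPM after PRATA and 11.9, 17.2 and 16.4 CPM after sham (log2 fold change -0.49, unadjusted p 0.0557 and adjusted p 0.282 by edgeR). Sham replicate 1 lay just above the highest PRATA value, and without that sample the unadjusted p by edgeR was 0.014. Mrpl1, of the mobile stalk through which spent tRNA leaves, had the highest log2 fold change of the family, 0.65, but a wide SE of 0.37, and its groups overlapped at 6.33, 5.98 and 3.56 CPM after PRATA and 2.83, 2.65 and 4.53 CPM after sham. Mrps27, an RNA-binding pentatricopeptide repeat protein, had 14.1, 18.4 and 20.6 CPM after PRATA and 21.7, 22.0 and 23.6 CPM after sham, a log2 fold change of -0.34 (SE 0.20). Mrps30, first described through programmed cell death, had a log2 fold change of -0.31 (SE 0.19), exit-tunnel protein Mrpl22 of -0.34 (SE 0.21), Mrps18b of -0.25 (SE 0.16) and Mrpl57, found only in mitochondrial ribosomes, of -0.34 (SE 0.24). Unadjusted p for these ran up to 0.19 by edgeR.

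**Figure D2:**
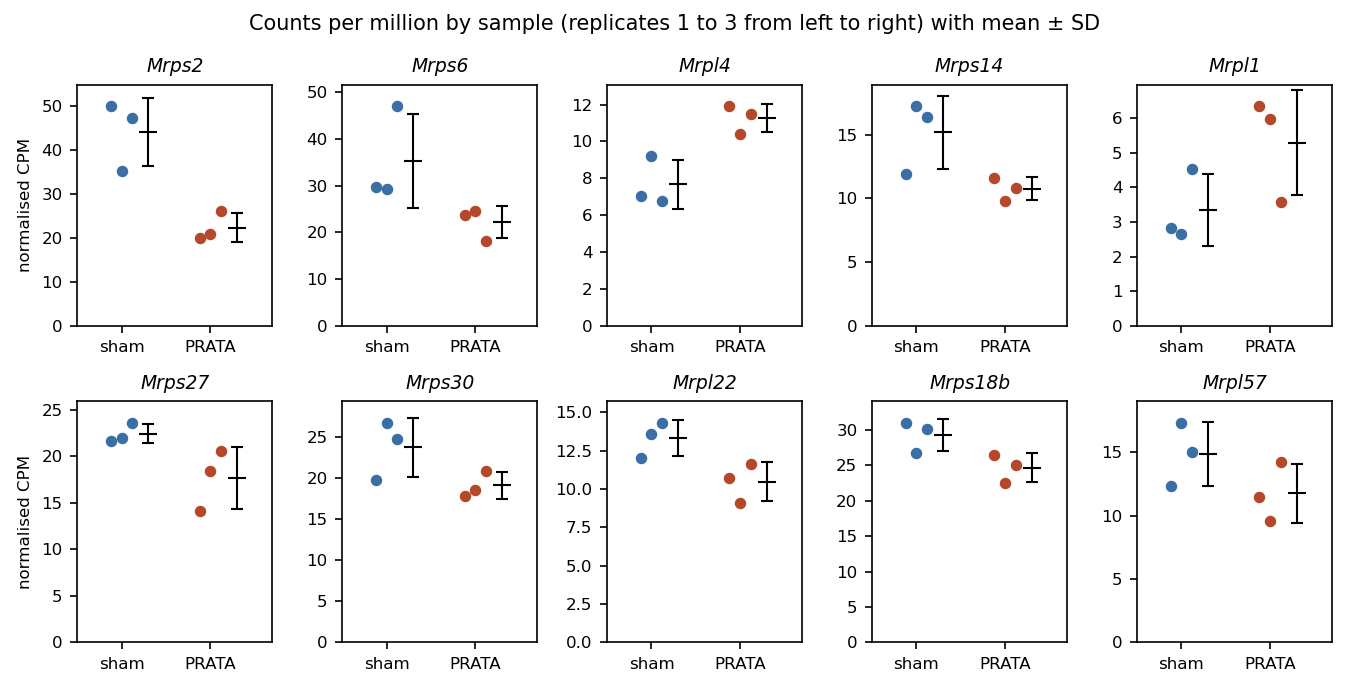
Normalized CPM in each sample for the 10 members with the smallest p, with the sham samples in blue, the PRATA samples in red, and mean ± SD beside them. The groups do not overlap for Mrps2, where PRATA samples lie between 20.0 and 26.1 and sham samples between 35.3 and 49.9 CPM, whereas those of Mrpl1, Mrps30 and Mrpl57 do.

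In all, 11 of 71 members (15.5%) had groups that did not overlap, 8 lower and 3 higher after PRATA, beside 22.8% of all genes (11.2% lower and 11.6% higher). With 3 samples against 3, an exact permutation test of a single gene cannot give a p under 0.1, even without overlap. Of the 11, 5 belonged to the large subunit (3 higher, 2 lower) and 6 to the small subunit (all lower). The lower ones were Mrps2, Mrps6, Mrps7, Mrps14, Mrps18b, Mrps27, Mrpl22 and Mrpl46, and the higher ones Mrpl4, Mrpl34 and Mrpl51. For several the gap between groups was narrow: Mrpl51 had 30.5, 27.1 and 31.6 CPM after PRATA and 27.0, 25.4 and 25.7 CPM after sham. Mrps7, the counterpart of bacterial S7 in the head of the small subunit, had 23.0, 21.5 and 24.7 CPM after PRATA and 25.2, 27.6 and 26.1 CPM after sham. Its log2 fold change of -0.19 (95% interval -0.56 to 0.18) did not pass the test.

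The best measured members set the tightest bounds. Mrpl45, Mrpl51, Mrps7 and Mrps18b each had an SE of 0.16, and their intervals reached no farther than -0.63 below or 0.55 above zero. The widest interval was that of Mrpl14 (log2 fold change 0.46, SE 0.45), with 19 to 51 reads a sample and a low value of 1.31 CPM in sham replicate 1 against 3.11 to 4.13 CPM in the other samples. Mrps33 followed (0.38, SE 0.39), with PRATA replicate 1 at 11.9 CPM and the other 5 samples at 4.15 to 8.58 CPM. Mrpl1, described above, also had few reads, 17 to 75 a sample.

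The Mrps18 genes are 3 paralogs that resemble bacterial S18, and their proteins take different places in the ribosome, Mrps18a in the large and Mrps18b and Mrps18c in the small subunit. Systematic naming treats Mrps18c alone as the counterpart of S18, and the split by descent counts Mrps18a and Mrps18b as particular to mitochondria. Mrps18b had 26.5, 22.5 and 25.1 CPM after PRATA and 31.0, 26.8 and 30.2 CPM after sham, without overlap. The log2 fold changes were 0.08 (95% interval -0.32 to 0.48) for Mrps18a, -0.25 (-0.63 to 0.12) for Mrps18b and 0.17 (-0.39 to 0.72) for Mrps18c. All 3 intervals span zero and overlap one another.

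Of the genes listed beforehand for a particular place or a second role, none passed the test, Mrps27 and Mrps30 above included. Mrpl10 and Mrpl12, of the stalk that receives translation factors, had log2 fold changes of 0.28 (SE 0.21) and -0.23 (SE 0.19). Mrpl45, which anchors the particle to the inner membrane, had 0.14 (SE 0.16), and Mrpl44, which resembles ribonuclease III, had 0.01 (SE 0.21). Mrpl58, a peptidyl-tRNA hydrolase built into the large subunit, had 0.09 (SE 0.23), and Mrps12, of the decoding center, had 0.08 (SE 0.26). Mrps36 carries a ribosomal name but is known as a subunit of the 2-oxoglutarate dehydrogenase complex. Its levels were 15.1, 10.4 and 11.6 CPM after PRATA and 7.12, 17.2 and 8.97 CPM after sham, so the groups overlapped, and the highest and the lowest sample were both sham.

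Mrpl17, Mrps9 and Mrps2 drew the most reads of the family, a comparison of read numbers that are not corrected for transcript length. Mrpl17, at the rim of the exit tunnel, had 50.0 ± 5.1 CPM after PRATA and 50.1 ± 13.3 CPM after sham (SD, n = 3 each), and Mrps9 had 33.4 ± 7.2 and 35.0 ± 2.46 CPM. In all, 4 members did not pass the filter on low counts, and no fold is given for them. Mrpl33 had 0.0791 to 0.516 CPM across the samples, Mrpl36 0.312 to 2.06, Mrpl53 0.0791 to 0.156 and Mrps21l 0 to 0.316. The 3 family genes written in small letters were tested but not called: mrpl11, at the base of the stalk, had a log2 fold change of 0.34 (SE 0.34), mrpl9 of -0.08 (SE 0.18) and mrpl24 of -0.16 (SE 0.20).

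Members differed from sample to sample within both groups. Summed over members, PRATA replicates 1 to 3 had 1175, 1015 and 1144 CPM and sham replicates 1 to 3 had 1028, 1229 and 1231 CPM, so the groups overlapped. Sham replicate 2 was the highest of the 6 samples for 24 of the 71 members and PRATA replicate 1 for 21. Sham replicate 1 was the lowest for 29 and PRATA replicate 2 for 22. Members' reads made up 0.0977% of the total in sham replicate 1, the deepest library, and 0.134% in sham replicate 2, the shallowest, with 0.104% to 0.122% in the others. The mean log2 CPM over tested members was 3.79 ± 0.12 after PRATA and 3.80 ± 0.18 after sham (SD, n = 3 each), a group difference well below the spread. The deepest library was thus lowest and the shallowest, with the most pseudogene reads, highest for the most members, and the part of depth and of pseudogene reads was not tested.

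**Figure D3:**
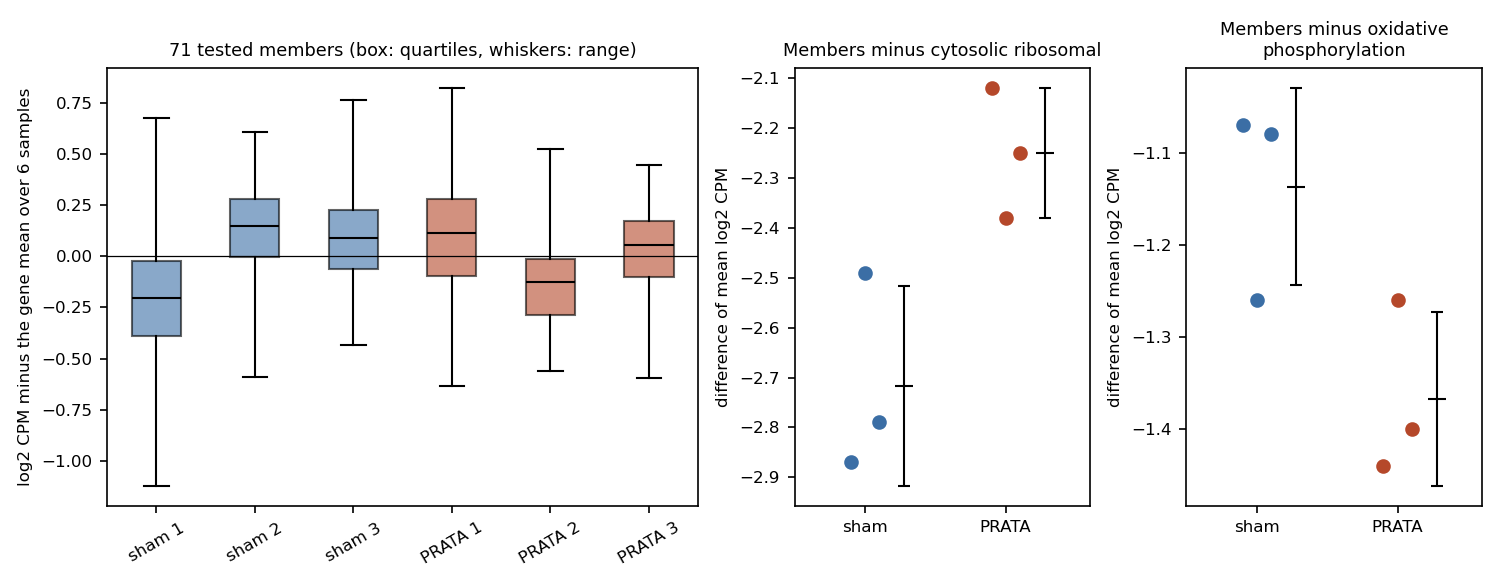
Left, log2 CPM of each tested member minus its mean over the 6 samples, as boxes (quartiles and median) with whiskers to the range, sham in blue and PRATA in red; sham 1 and PRATA 2 sit low, with medians of -0.20 and -0.13. Middle and right, per sample, the members' mean log2 CPM minus that of cytosolic ribosomal protein genes and of nuclear oxidative phosphorylation genes, with mean ± SD.

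Cytosolic ribosomal protein genes were read in the same samples. These genes build the ribosomes that translate nuclear messages, mitochondrial ribosomal proteins included. Of 79 tested, 44 were lower and 0 higher after PRATA at an unadjusted p under 0.05 (10.1% of all genes were lower). Groups did not overlap for 51, all lower, where 11.2% of all genes were lower without overlap. Their median log2 fold change was -0.47, beside 0.02 for the members. Members' mean log2 CPM minus that of the cytosolic set was -2.12, -2.38 and -2.25 in the PRATA samples and -2.87, -2.49 and -2.79 in the sham samples, so the sets stood closer in every PRATA sample than in any sham sample. The median stayed below zero in all 16 refits (-0.60 to -0.38). The number lower fell to 18 without PRATA replicate 1, to 27 without PRATA replicate 3 and to 14 without sham replicate 3. The share of all genes past that threshold in either direction fell as well. It was 18.3% with all samples and 8.91%, 13.1% and 9.33% in these fits.

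Nuclear genes of oxidative phosphorylation, the complexes that mitochondrial ribosomes help to build, lay around a median log2 fold change of 0.18 (76 tested). At an unadjusted p under 0.05, beside 8.19% of all genes higher and 10.1% lower, 2 of these genes were higher and 0 lower. Relative to them the members stood at -1.44, -1.26 and -1.40 on the log2 scale after PRATA and at -1.07, -1.26 and -1.08 after sham, with PRATA replicate 2 and sham replicate 2 meeting at -1.26. The number higher moved with single samples. It was 14 without sham replicate 2, 5 without PRATA replicate 2 and 0 without PRATA replicate 1, PRATA replicate 3 or sham replicate 3. In these fits, in the same order, 27.6%, 15.4%, 8.91%, 13.1% and 9.33% of all genes passed that threshold in either direction. With all samples the share was 18.3%. The median of the oxidative phosphorylation genes was -0.01 in the 4 samples other than PRATA replicate 3 and sham replicate 1. The neuronal markers had a median log2 fold change of 0.47. These values are given side by side, since all the lists share the same 6 samples.

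**Figure D4:**
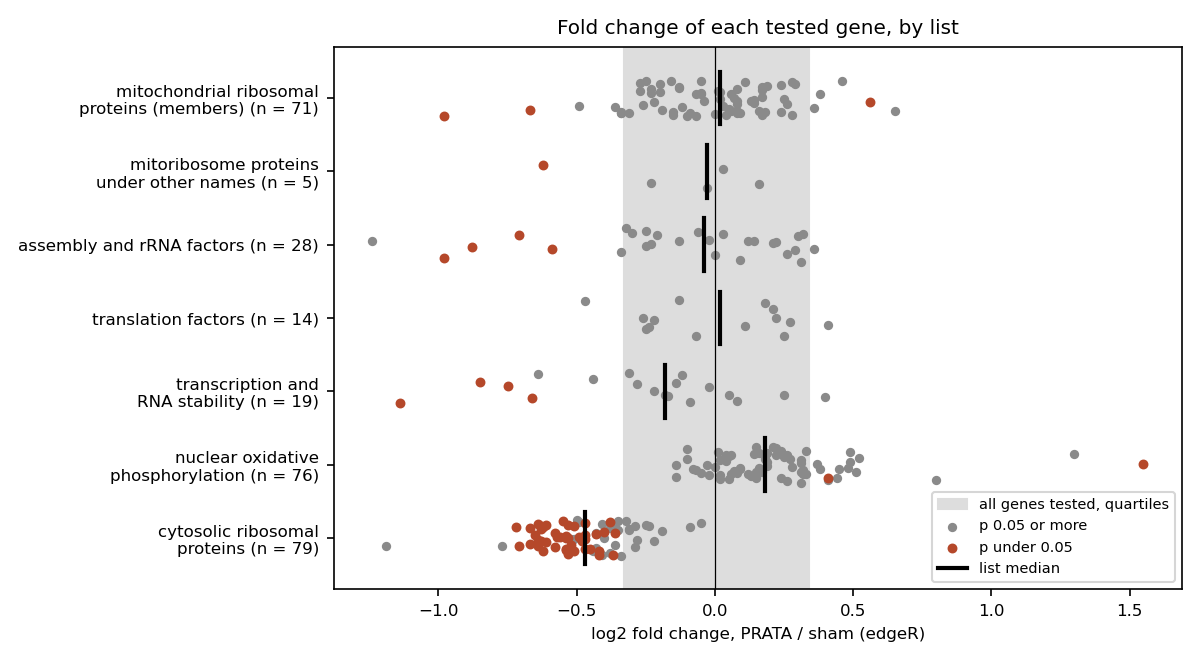
Log2 fold change of every tested gene in each list, with red points for an unadjusted p under 0.05, black bars for list medians and a gray band for the middle values of all genes tested (-0.33 to 0.34). Members gather around zero, whereas cytosolic ribosomal protein genes lie at or below -0.05.

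The rest of the mitochondrial translation apparatus was read from lists of its parts. Of 5 mitochondrial ribosomal proteins that carry other names, Ptcd3, a pentatricopeptide repeat protein of the small subunit, was lower after PRATA at 23.6, 20.1 and 23.5 CPM against 31.2, 31.1 and 41.0 CPM, with a log2 fold change of -0.62 (unadjusted p 0.00947 and adjusted p 0.175 by edgeR). Gadd45gip1 and Chchd1 had log2 fold changes of 0.16 (SE 0.23) and -0.23 (SE 0.35).

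Among 28 factors that assemble the particle or modify its RNA, 4 were lower and 0 higher at an unadjusted p under 0.05, with a list median of -0.04, where 10.1% of all genes were lower and 8.19% higher. Noa1, a GTPase of ribosome assembly, had 17.2, 15.7 and 20.6 CPM after PRATA and 28.9, 28.9 and 40.9 CPM after sham (log2 fold change -0.88). Mterf3, which acts on mitochondrial transcription and large-subunit assembly, had a log2 fold change of -0.98, Rcc1l, a guanine nucleotide exchange protein of assembly, of -0.71, and Mrm1, which methylates the large ribosomal RNA, of -0.59. The 4 adjusted p-values by edgeR ran from 0.156 to 0.255. The number lower fell to 2 without PRATA replicate 2, PRATA replicate 3 or sham replicate 3. The share of all genes past that threshold in either direction was 15.4%, 13.1% and 9.33% in these fits, against 18.3% with all samples. Rcc1l lost its call when PRATA replicate 2 or 3 or sham replicate 1 or 3 was left out, with log2 fold changes of -0.64, -0.72, -0.59 and -0.65.

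None of 14 translation factors passed that threshold (median 0.02). Elongation factor Gfm1 had a log2 fold change of -0.47 (SE 0.26). Initiation factors Mtif2 and Mtif3 had 0.27 (SE 0.20) and -0.26 (SE 0.22), each without overlap between groups, beside 22.8% of all genes in either direction. Among 19 genes of mitochondrial transcription and RNA stability, 4 were lower and 0 higher, with a median of -0.18, beside the same 10.1% and 8.19% of all genes.

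Tfam, which packs mitochondrial DNA and starts its transcription, had 11.4, 13.5 and 12.9 CPM after PRATA and 28.3, 21.5 and 33.2 CPM after sham. All PRATA values were below all sham values, and the log2 fold change was -1.14 (SE 0.21), with an unadjusted p of 0.000627 and an adjusted p of 0.156 by edgeR. The other 3 were Mtpap, the mitochondrial poly(A) polymerase (-0.75), Fastkd5, a processing factor listed in the table as AABR07053741.1 (-0.85), and Trmt10c, a subunit of mitochondrial ribonuclease P (-0.66). The row of Fastkd5 is not labeled protein-coding. With protein-coding genes alone, 18 of the list were tested and 3 were lower at an unadjusted p under 0.05 by edgeR. In that fit 19.6% of all genes passed in either direction. Messages encoded by mitochondrial DNA itself are not analysed here.

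Many members share their upstream region with a neighbor transcribed the other way. In the RefSeq windows, 16 of 59 members (27.1%) had a protein-coding gene of the table starting on the opposite strand within 1000 bases upstream, compared with 7.8% of 13422 protein-coding genes. Mrpl46 and Mrps11 are such a pair in which both are members, with 234 bases between their starts. Mrpl46 had a log2 fold change of -0.26 (SE 0.20) and Mrps11 of 0.29 (SE 0.28). Other neighbors were Ndufb5, a subunit of respiratory complex I, beside Mrpl47 (0.19 and -0.36), Psma2, a proteasome subunit, beside Mrpl32 (-0.37 and -0.22), Ptcd2 beside Mrps27 (-0.15 and -0.34), and Tcp1, a subunit of the cytosolic chaperonin, beside Mrpl18 (-0.36 and -0.05). Klc4, beside Mrpl2, was the 1 neighbor past an unadjusted p under 0.05, with a log2 fold change of 0.58 against 0.25 for Mrpl2.

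**Figure D5:**
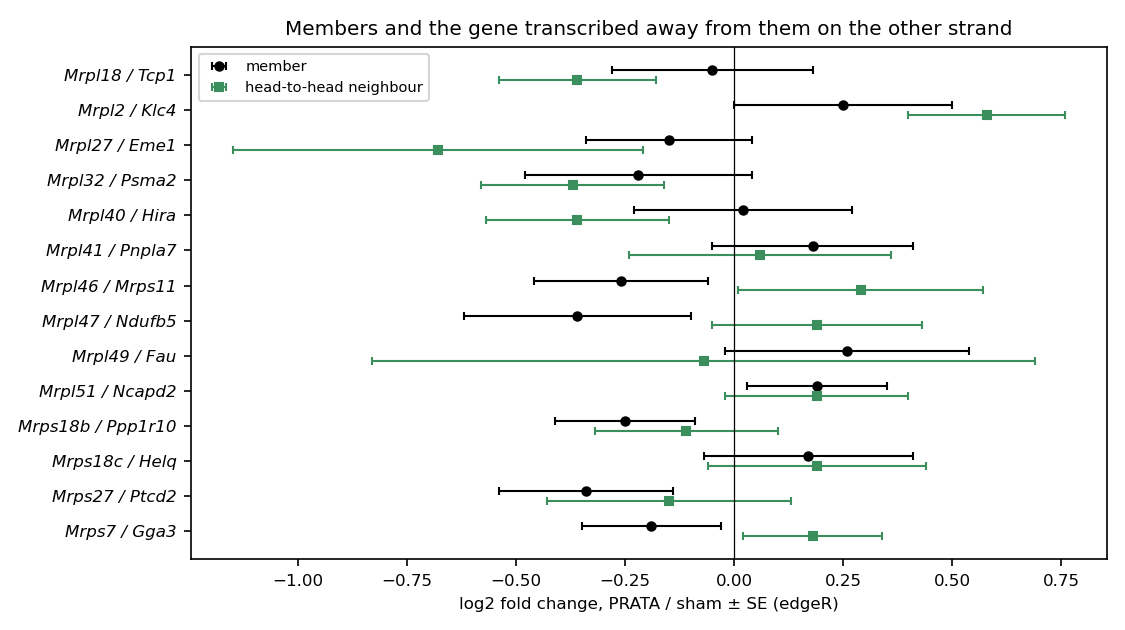
Log2 fold change ± SE of members (black circles) and of the gene that starts within 1000 bases upstream on the opposite strand (green squares), for pairs in which both were tested. Klc4, neighbor of Mrpl2, at 0.58, is the 1 neighbor past an unadjusted p under 0.05.

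Some counts in the family are less certain than their size shows. RefSeq names 40 pseudogenes after family members, and 22 of the 75 members have at least 1 of them. Mrps2, Mrps6 and Mrpl4 have none. Reads of the members with copies could be split between gene and copy, and how such reads were counted is not given in the sources used here. In the same annotation 19 members overlap another gene, 13 of them a gene that is in the table. Mrpl22 overlaps Gemin5, which was lower (log2 fold change -0.63), and Mrpl14 overlaps Tmem63b, which was higher (0.43).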

How the data were processed

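For 6 RNA samples of L1-L2 DRG neurons the authors deposited unnormalized counts per gene. The study's methods name HISAT2, StringTie and Cuffdiff for FPKM values, whereas the submitters' processing notes list STAR 2.7.3a, RSEM and DESeq2. Which of these wrote the counts, the genome build, the strand setting and the treatment of multi-mapped reads are not given in the sources used here.

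The fit used edgeR 4.0.16 under R 4.3.3 (filterByExpr with minimum count 10 and minimum total 15, TMM, quasi-likelihood test, two-sided, no covariate, Benjamini-Hochberg over 14919 genes). This test prints no SE, so each edgeR SE was taken as the absolute log2 fold change divided by the square root of the F statistic. The 95% intervals used that SE and a t quantile, and are approximate. The fits were checked on simulated data. CPM values are TMM-normalized, and intervals and floors cover the model's error or that of counting alone, because without molecular identifiers a read is not a separate molecule. Depth was 5892967 to 15226952 counts per sample, and 3 counts of the shallowest sample equal 0.509 CPM.

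Members, roles and companion lists were chosen with earlier results of these data known. The subunit and descent of each member and the lists were written from general knowledge. Single placements, such as those of Mrpl47 and Mrpl55, may therefore differ from the systematic naming of ribosomal proteins. Genes were named by rule: the 10 members of smallest p, up to 5 of smallest p opposite in sign to the median, the 3 of highest CPM, all that failed the filter, the Mrps18 paralogs, 10 with a particular role, and up to 3 of smallest p in each companion list. Pairs with neighbors, members without overlap, the best and least well measured members, and further genes past the threshold in a list, were named after their values were seen. Of 20 genes of transcription and RNA stability 19 matched the table, and Fastkd5 was matched through a RefSeq synonym. Promoter windows, neighbors and pseudogene names come from RefSeq, build GRCr8.

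Alternatives were DESeq2 1.42.0 and its size factors, library size alone, other filters, limma 3.58.1 (limma-trend with a pseudocount of 1, and voom with sample quality weights), the replicate number as a block, each sample left out, the 4 samples without PRATA replicate 3 and sham replicate 1, protein-coding genes alone, subtraction of the neuronal marker mean and, added after seeing the data, the 3 genes written in small letters. Python 3.11.15 and matplotlib 3.10.9 drew the figures.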

Additional observations from a re-analysis of the deposited data

How the results depend on the processing

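No value of the family turned its direction past the threshold in any alternative. Mrps2 kept an unadjusted p under 0.05 in all 16 refits (log2 fold change -1.11 to -0.91), and its adjusted p ran from 0.00435 to 0.55, under 0.05 with DESeq2, with voom and sample quality weights, and without sham replicate 2. Mrps6 kept its call in 12 of 16 and Mrpl4 in 7 of 16, while Mrps14 gained one in 5.

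The share of all genes at an unadjusted p under 0.05, in either direction, differed between fits. It was 18.3% in the main fit and 30.9% with voom and sample quality weights. With 1 sample left out it ran from 8.91% (without PRATA replicate 1) to 27.6% (without sham replicate 2). Against 2 members lower, 1 higher, 0 past 2-fold and 0 at an adjusted p under 0.05, the members' counts moved as follows. DESeq2's size factors, and protein-coding genes alone, each gave 3 lower and 1 member past 2-fold. Library size alone gave 0 higher and 1 past 2-fold. DESeq2 gave 0 higher, 1 past 2-fold and 1 at an adjusted p under 0.05. Voom with sample quality weights gave 4 lower, 1 past 2-fold and 1 at an adjusted p under 0.05. The 4 samples other than PRATA replicate 3 and sham replicate 1 gave 0 higher, 1 past 2-fold and a median log2 fold change of -0.15. Leaving out 1 sample gave 1 to 5 lower (1 without PRATA replicate 3 or sham replicate 3, 5 without sham replicate 1), 0 to 2 higher (2 without sham replicate 2, and 0 without PRATA replicate 1 or 2 or sham replicate 1 or 3), 0 to 1 past 2-fold and 0 to 1 at an adjusted p under 0.05, each 1 without sham replicate 2 and the former also without PRATA replicate 3, and a median between -0.10 and 0.09. Subtracting the neuronal marker mean takes the same amount from every gene of a sample. The members' median became -0.45 and that of all genes -0.44, a shift set by the subtraction itself. The cause of the other moves was not tested.

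The replicate numbers do not pair the samples: after subtraction of the group means, samples of the same number correlated at -0.355, -0.0511 and -0.349. With the replicate number as a block, 1 member was lower and 0 were higher, and the median was 0.03. In that fit 14 of the cytosolic ribosomal protein genes were lower, against 44 without the block. Of all genes, 10.2% had an unadjusted p under 0.05 by edgeR with the block, against 18.3% without it. Members had 17 to 722 reads in a sample, and SEs of their log2 fold changes ran from 0.16 to 0.45.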
